A study of Mus musculus with 30 samples.

Results

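Ginsenoside Rb2 and the non-saponin fraction of Korean Red Ginseng were compared in muscle cells that then received D-galactose, across all expressed genes. The 2 groups, written Rb2_Dgal and NSFr_Dgal, held 3 libraries each, so that 6 of the 30 libraries of the series entered the comparison and 12184 of 16025 listed genes passed the filter on low counts. Rb2_Dgal cultures received Rb2 at 20 µM for 12 h and then D-galactose at 20 mg/mL for 24 h. NSFr_Dgal cultures received the non-saponin fraction at 100 µg/mL for 12 h and then the same D-galactose exposure. The doses of the 2 preparations are therefore in different units and cannot be matched, and an effect of substance and an effect of dose cannot be told apart. All cells were wildtype C2C12, a mouse myoblast line that fuses into contractile myotubes when serum is lowered, so that the cells of every group descend from 1 immortal line. The design text names the libraries of a group biological replicates and does not say whether they came from separate days or passages. Other groups used here received D-galactose without a preparation (Dgal), Rb2 alone for 12 h (Rb2), the non-saponin fraction alone for 12 h (NSFr) or vehicle (control), each with 3 libraries. Whether the preparations shared a solvent is not given in the sources used here.

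Ginsenosides are the steroid-like triterpene saponins of ginseng, and Rb2 is one of the protopanaxadiol type, which carries sugar chains on a sterol-shaped core. The non-saponin fraction is what an extract holds besides them, such as polysaccharides, amino sugars, phenolic acids and maltol derivatives, and is a mixture. D-galactose at high concentration is a laboratory stressor that brings on oxidative and ageing-like changes in cells and animals. The 2 groups share that stressor, so their comparison sets the preparations given before it against each other.

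The 6 libraries held 22749017 to 29235587 counts, a depth at which 3 counts correspond to 0.103 to 0.132 CPM (counts scaled to a common library total of 1000000). Between replicates the root mean square log2 difference over genes was 0.213 to 0.249, and between libraries of the 2 groups 0.258 to 0.285. The first principal component of the 6 libraries held 35.9% of the variance and separated the groups. Of 12 myotube markers 10 were tested, and all of them together summed to 23370 to 24230 CPM in each library. Markers of blood and endothelial cells summed to 3.64 to 5.00 CPM. Bone and cartilage markers summed to 1537 to 1673 CPM in Rb2_Dgal and 1314 to 1358 CPM in NSFr_Dgal, mostly from Spp1, the osteopontin gene (log2 fold change 0.29 ± 0.038, adjusted p = 2.30e-06). The share of counts from the mitochondrial genome was 1.2% to 1.32% in Rb2_Dgal and 1.29% to 1.53% in NSFr_Dgal. In these bulk cultures, fewer cells of a type and less RNA per cell cannot be told apart.

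Of the 12184 genes tested, 1126 were called at an adjusted p under 0.05, which is 9.24%, with 503 higher in Rb2_Dgal (4.13%) and 623 lower (5.11%). Most differences were small: the median size among called genes was 0.218 on the log2 scale. At least 1.5-fold differences were called for 99 genes, 19 higher and 80 lower, and at least 2-fold differences for 31, 6 higher and 25 lower. In the larger differences Rb2_Dgal was therefore mostly the lower of the 2 groups. Against Dgal, differences of at least 1.5-fold were called for 19 genes higher and 17 lower in Rb2_Dgal. In NSFr_Dgal they were called for 43 genes higher and 6 lower. These comparisons with Dgal share its 3 libraries and are only set side by side. In a fit with only these 6 libraries 1947 genes were called, and with 1 of the 6 libraries left out 661 (without Rb2_Dgal 1) to 773 (without Rb2_Dgal 3). For 32.2% of all tested genes the libraries of the 2 groups did not overlap, which is the background for the statements on overlap of single genes. The shares of 9.24% called, 4.13% higher and 5.11% lower are the background for the list counts between Rb2_Dgal and NSFr_Dgal below.

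**Figure D1:**
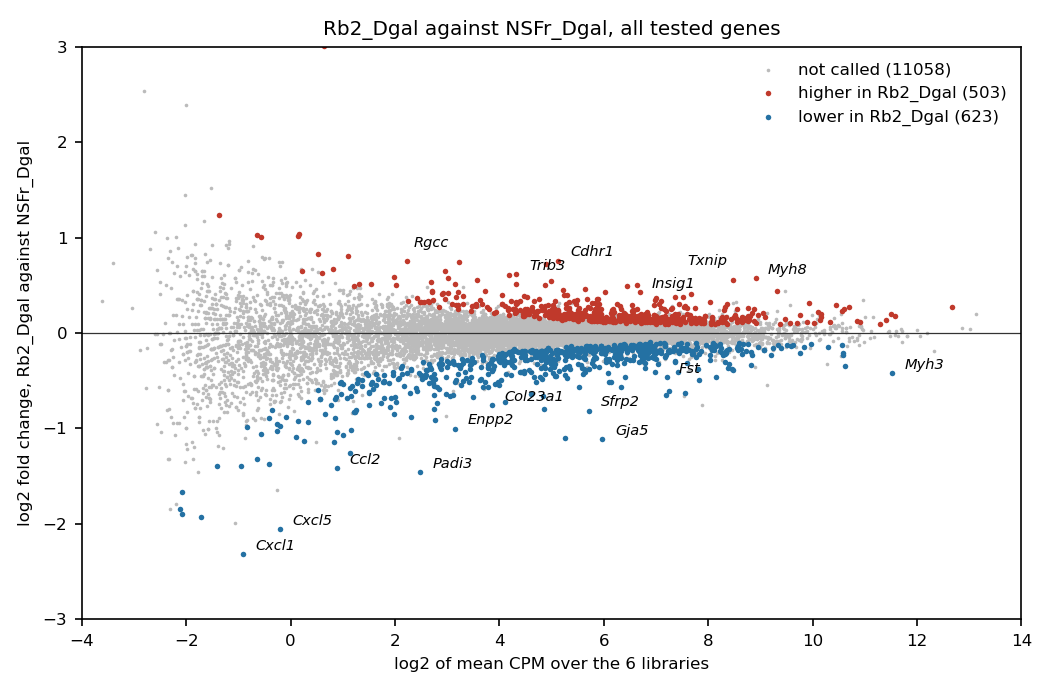
Log2 fold change of Rb2_Dgal against NSFr_Dgal plotted against the log2 of the mean CPM over the 6 libraries, 1 point per tested gene; 4 genes lie outside the axes. The 503 genes called higher (red) mostly stay within a log2 fold change of 1, whereas the 623 called lower (blue) reach beyond -2 among genes of low level.

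Among genes with a mean of at least 5 CPM, the largest difference was in Padi3, a peptidylarginine deiminase known from hair follicles that converts arginine to citrulline. Its level was 2.52, 3.01 and 3.31 CPM in the Rb2_Dgal libraries and 7.85, 7.91 and 8.74 CPM in the NSFr_Dgal libraries, a log2 fold change of -1.46 ± 0.14 (SE, adjusted p = 8.82e-09). No library of one group reached the other, and the 3 Dgal libraries lay between them at 4.82, 4.06 and 4.51 CPM. Gja5, the gene of the gap junction protein connexin 40, followed at 40.1, 36.4 and 42.7 CPM against 82.6, 87.9 and 87.4 CPM (-1.11 ± 0.064, adjusted p = 1.98e-13). Asprv1, an aspartic protease first known from skin, stood at 24.01, 23.1 and 25.7 CPM against 52.4, 50.9 and 52.97 CPM (-1.10 ± 0.059). Enpp2, which encodes autotaxin, the secreted enzyme that makes lysophosphatidic acid, stood at 5.84, 5.98 and 5.91 CPM against 10.2, 13.8 and 11.3 CPM (-1.003 ± 0.10). Each of these 4 genes was both lower in Rb2_Dgal than in Dgal and higher in NSFr_Dgal than in Dgal: the log2 fold changes against Dgal were -0.59 and 0.87 for Padi3, -0.54 and 0.57 for Gja5, -0.49 and 0.61 for Asprv1, and -0.41 and 0.59 for Enpp2, all called. The 2 comparisons with Dgal share its 3 libraries, so their values are only set side by side here and below. On GRCm38, Padi3 lies at chr4:140785365-140810648, Gja5 at chr3:96904693-97077416 and Enpp2 at chr15:54838901-54952892.

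The other 8 of the 12 largest falls were Grhl3, an epithelial transcription factor (-0.91), Sfrp2 and Nkd2 of the Wnt pathway (-0.81 and -0.80), the lipid droplet protein gene Hsd17b13 (-0.80), the transmembrane collagen gene Col23a1 (-0.75), the synaptotagmin family gene Syt8 (-0.74), Ly6c2 (-0.72) and the receptor gene Tnfrsf19 (-0.67). Col23a1 stood at 11.1, 9.99 and 11.04 CPM in Rb2_Dgal, 19.7, 16.4 and 18.2 CPM in NSFr_Dgal and 19.5, 18.7 and 18.5 CPM in Dgal. Its NSFr_Dgal and Dgal libraries overlapped and its Rb2_Dgal libraries lay below both (-0.75 ± 0.071 between the preparations, adjusted p = 4.47e-09). Ly6c2, a surface antigen of the Ly6 family, gave 12.5, 13.5 and 12.9 CPM in Rb2_Dgal and 21.98, 20.8 and 21.5 CPM in NSFr_Dgal, with Dgal at 14.7, 15.6 and 14.4 CPM. Against Dgal, Ly6c2 was called only in the NSFr_Dgal comparison (0.52, adjusted p = 2.47e-06), where the Rb2_Dgal value was -0.20 (adjusted p = 0.159).

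**Figure D2:**
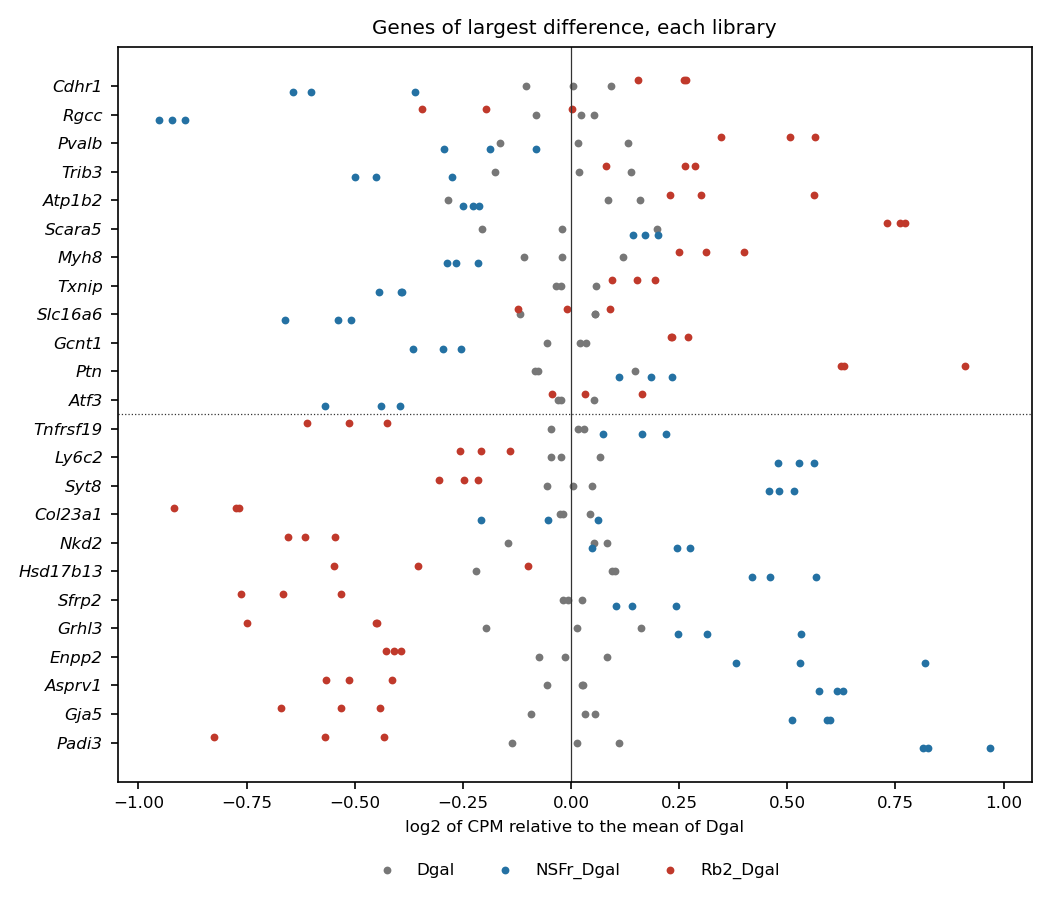
Level of the 12 genes of largest rise (above the dotted line) and 12 of largest fall (below it) in each library, as the log2 of CPM relative to the mean of the 3 Dgal libraries; red points are Rb2_Dgal, blue NSFr_Dgal and grey Dgal. For Padi3, Gja5 and Asprv1 the groups lie on opposite sides of Dgal, whereas Col23a1, Ptn and Scara5 separate only the Rb2_Dgal libraries and Rgcc and Slc16a6 the NSFr_Dgal libraries.

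The 12 largest rises were smaller, from 0.52 to 0.76 on the log2 scale. Cdhr1, a photoreceptor cadherin gene, stood at 44.5, 44.6 and 41.4 CPM in Rb2_Dgal and 28.9, 23.8 and 24.5 CPM in NSFr_Dgal (0.76 ± 0.073, adjusted p = 1.03e-08). Pvalb, the calcium-binding protein parvalbumin of fast muscle fibres, stood at 10.1, 9.72 and 8.70 CPM against 6.01, 6.48 and 5.59 CPM (0.65 ± 0.11), and Atp1b2, a beta subunit of the sodium pump, at 19.9, 25.1 and 20.9 CPM against 14.6, 14.3 and 14.5 CPM (0.60 ± 0.11). Scara5, a ferritin receptor, stood at 9.68, 9.76 and 9.48 CPM against 6.44, 6.58 and 6.32 CPM (0.58 ± 0.095), with Dgal at 4.96, 6.56 and 5.64 CPM. Ptn, which encodes the secreted growth factor pleiotrophin, stood at 8.71, 7.14 and 7.18 CPM against 5.27, 5.45 and 5.01 CPM (0.54 ± 0.10), with Dgal at 5.14, 4.37 and 4.39 CPM. In Scara5 and Ptn every Rb2_Dgal library was above all NSFr_Dgal and Dgal libraries, and NSFr_Dgal was not called against Dgal (0.17 and 0.18, adjusted p = 0.374 and 0.393). The glycosyltransferase gene Gcnt1 (0.55) completed the list with the perinatal myosin gene Myh8 and the genes Rgcc, Txnip, Slc16a6, Trib3 and Atf3, which are described with their groups.

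Cholesterol synthesis runs from acetyl-CoA through mevalonate and squalene to the sterol ring, and its enzymes are transcribed together under the factor SREBP2 when sterols are scarce. Of 25 genes of this pathway, all tested, 20 were called higher in Rb2_Dgal and 1 lower, with a median log2 fold change of 0.25 against 0.005 over all genes tested. The regulator Insig1, which holds SREBP in the endoplasmic reticulum, stood at 117, 115 and 123 CPM in Rb2_Dgal and 87.5, 85.3 and 90.6 CPM in NSFr_Dgal (0.43 ± 0.043, adjusted p = 1.21e-08). In the mevalonate arm, the synthase gene Hmgcs1 stood at 303, 287 and 279.9 CPM against 234, 228 and 234 CPM (0.32 ± 0.038). In both genes all 3 Rb2_Dgal libraries were above all 3 NSFr_Dgal libraries. The isomerase gene Idi1 differed by 0.35 ± 0.044, and Fdft1 and Sqle, which make squalene and open its cyclisation, by 0.22 ± 0.041 and 0.26 ± 0.040. In the later steps, the demethylase gene Cyp51 differed by 0.28 ± 0.036, Nsdhl by 0.31 ± 0.040 and Msmo1 by 0.30 ± 0.043. The exception was the sterol isomerase gene Ebp, which was lower (-0.19 ± 0.047, adjusted p = 0.00704), and its call was lost in some alternatives, with an adjusted p of up to 0.0572.

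Set beside Dgal, 13 of the 25 genes were called lower in NSFr_Dgal and 0 higher, where 6.33% of all genes were called (3.5% higher and 2.82% lower), and 2 were called higher in Rb2_Dgal and 0 lower, where 2.26% of all genes were called (1.16% higher and 1.1% lower). The 2 were Insig1 (0.26) and Dhcr7, the last enzyme of the pathway (0.16). By edgeR 15 of the 25 genes had an unadjusted p under 0.05 in Rb2_Dgal against Dgal. Hmgcs1 stood at 273, 249 and 278 CPM in Dgal, with log2 fold changes of 0.12 in Rb2_Dgal and -0.20 in NSFr_Dgal. Fatty acid synthesis genes, which answer to the related factor SREBP1, were called higher in 8 of 14 tested cases and lower in 0, with a median of 0.14. They included the acetyl-CoA synthetase gene Acss2 (0.35 ± 0.043, adjusted p = 8.92e-07), the desaturase genes Scd1 (0.20) and Scd2 (0.14), and the citrate lyase gene Acly (0.15). This count fell to 5 without NSFr_Dgal 2 and was 10 with only the groups compared. Fat cell markers summed to 6.41 to 7.06 CPM in Rb2_Dgal and 4.58 to 5.90 CPM in NSFr_Dgal, without overlap, and nearly all of it was Pparg, the gene of a fat cell regulator that was the 1 of 8 markers to pass the filter (0.32 ± 0.099, adjusted p = 0.0335 by edgeR). Pparg lost its call in 7 of 11 alternatives, DESeq2 among them (adjusted p of up to 0.223). The other 7 markers, Adipoq and Cfd among them, had 0 or 1 counts in each of the 6 libraries. The part of fat cells in the lipid gene differences was not tested. Of 12 genes of cholesterol efflux, 2 were called lower and 0 higher, beside 5.11% and 4.13% of all genes. The 2 were Apoe (-0.23 ± 0.071), the apolipoprotein E gene, and the receptor gene Nr1h2 (-0.15 ± 0.048). Both lost the call in some alternatives, with adjusted p values of up to 0.141 and 0.163, and the efflux transporter gene Abca1 had a value of -0.03 ± 0.15 (adjusted p = 0.936).

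Hmgcs1 is the 1 gene of this list whose start-proximal sequence held the classical sterol regulatory element. It was searched on both strands as TCACNCCAC, from 250 bases before to 50 bases after each RefSeq gene start (GRCm38.p6). Of 25 list members 17 had a sequence in that collection, 15 of them called, and 1.44% of all gene symbols there held the motif. In the fatty acid synthesis list it was found in 0 of 12 members with a sequence, 6 of them called. The stretch around it, on the plus strand at chr13:119690184-119690252, is printed 5′ to 3′ with the match in capitals.
Hmgcs1: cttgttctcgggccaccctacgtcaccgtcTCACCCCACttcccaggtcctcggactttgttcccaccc

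Txnip, Arrdc3 and Arrdc4 encode alpha-arrestins, adaptor proteins that draw transporters such as the glucose carriers off the cell surface, and Txnip also binds thioredoxin. They are known as genes switched on by glucose metabolites through the MondoA factor. Of 9 tested genes of the glucose-responsive list, 6 were called higher in Rb2_Dgal and 0 lower, and the median log2 fold change was 0.49. Like the other lists, this one was chosen with earlier results of these data known, so the count carries no test. Txnip, at chr3:96557957-96561883 on GRCm38, stood at 428, 441 and 411 CPM in Rb2_Dgal, 293, 283 and 294 CPM in NSFr_Dgal and 379, 376 and 401 CPM in Dgal (0.56 ± 0.047 between the preparations, adjusted p = 6.21e-10). Arrdc3 stood at 115, 121 and 113 CPM against 81.1, 82.3 and 82.3 CPM (0.50 ± 0.056), with Dgal at 108, 123 and 118 CPM. In both genes the NSFr_Dgal libraries were the lowest of the 3 groups, without overlap. Rgcc, a cell cycle regulator that this list holds, stood at 11.5, 13.2 and 10.4 CPM against 6.83, 7.12 and 6.97 CPM (0.75 ± 0.11, adjusted p = 1.41e-05), with Dgal at 12.5, 13.4 and 13.7 CPM. The transporter gene Slc16a6 stood at 13.1, 15.2 and 14.2 CPM against 9.02, 9.81 and 10.02 CPM (0.56 ± 0.077), with Dgal at 13.1, 14.8 and 14.8 CPM. Klf10 differed by 0.25 ± 0.036 and Arrdc4 by 0.49 ± 0.14, the latter losing its call in 6 of 11 alternatives (adjusted p of up to 0.106). All 6 genes were called lower in NSFr_Dgal than in Dgal, where 2.82% of all genes were, with log2 fold changes from -0.92 for Rgcc to -0.20 for Klf10. In Rb2_Dgal against Dgal, where edgeR called 2.26% of all genes, edgeR and DESeq2 called 0 of the 9, with 1 at an unadjusted p under 0.05 in each. Slc2a4, the insulin-responsive glucose carrier GLUT4, had the same pattern of values (0.44 ± 0.10 between the preparations, -0.50 in NSFr_Dgal and -0.06 in Rb2_Dgal against Dgal).

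Txnip was also the 1 member, of 10 with a promoter sequence, that held a carbohydrate response element in the 300 bases searched. This element was searched as CACGNG on both sides of 5 bases, on either strand, from 250 bases before to 50 after the start. Of all symbols 0.0555% held it. It is the element through which MondoA and its partner bind. The stretch around it, at chr3:96557842-96557918 on the plus strand, is printed 5′ to 3′ with the element in capitals.
Txnip: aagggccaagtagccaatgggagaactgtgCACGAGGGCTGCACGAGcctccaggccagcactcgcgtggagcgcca

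The tumour suppressor p53 induces a set of genes for cell cycle arrest, repair and death. Of 24 such targets, all tested, 11 were called higher in Rb2_Dgal and 0 lower (median 0.13). Zmat3, an RNA-binding zinc finger gene, stood at 49.96, 51.1 and 50.6 CPM in Rb2_Dgal and 43.2, 40.8 and 42.3 CPM in NSFr_Dgal (0.27 ± 0.044, adjusted p = 9.76e-05), and Dgal at 50.8, 54.2 and 55.8 CPM. Btg2, an antiproliferative gene, stood at 64.1, 69.2 and 67.5 CPM against 51.8, 53.5 and 51.00 CPM (0.36 ± 0.040), and Dgal at 62.7, 64.8 and 61.9 CPM. In both, the Rb2_Dgal libraries were nearer to Dgal than the NSFr_Dgal libraries were. Ei24 (0.25), the kinase gene Plk2 (0.26), the death receptor gene Eda2r (0.25), cyclin G1, Ccng1 (0.19), the repair polymerase gene Polk (0.23), the nuclease gene Aen (0.17) and the sestrin gene Sesn2 (0.36) were also higher. Phlda3 (0.18) and Trp53inp1 (0.15) were the other two, and with Aen they lost the call in some alternatives (adjusted p of up to 0.178, 0.146 and 0.0780). Against Dgal, 12 of the 24 were called lower in NSFr_Dgal and 0 higher, and 0 were called in Rb2_Dgal by edgeR or DESeq2, with 7 and 6 at an unadjusted p under 0.05. Over all genes edgeR called 2.82% lower in NSFr_Dgal and 2.26% in either direction in Rb2_Dgal. Cdkn1a, the p21 gene and the best known p53 target, gave 0.04 ± 0.038 between the preparations (adjusted p = 0.634), and Mdm2, which limits p53, gave 0.06 ± 0.036 (adjusted p = 0.328).

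The integrated stress response slows translation and raises the transcription factor ATF4, which with C/EBP partners turns on amino acid synthesis, transport and stress genes. Of 24 tested genes 7 were called higher in Rb2_Dgal and 2 lower, with a median of 0.10. Higher were the regulators: Atf4 at 362, 346 and 339 CPM against 293, 289.7 and 287 CPM (0.27 ± 0.047, adjusted p = 0.000165), Atf3 at 10.3, 11.3 and 9.82 CPM against 7.69, 7.46 and 6.82 CPM (0.52 ± 0.096), and the pseudokinase gene Trib3 at 25.6, 25.2 and 22.2 CPM against 17.3, 15.3 and 14.8 CPM (0.62 ± 0.13). The groups did not overlap in any of the 3. Chac1, a glutathione-degrading enzyme (0.45 ± 0.10), Sesn2, Vldlr, a lipoprotein receptor (0.21), and Nupr1 (0.24) were the other genes called higher; Vldlr and Nupr1 lost the call in some alternatives (adjusted p of up to 0.0715 and 0.166). Lower were Phgdh, the first enzyme of serine synthesis, at 101, 96.7 and 92.4 CPM against 126, 124 and 125 CPM (-0.37 ± 0.052, adjusted p = 6.79e-06), and the secreted stanniocalcin gene Stc2 (-0.36 ± 0.069). Asns, asparagine synthetase, stood at 73.9, 72.7 and 64.7 CPM against 66.7, 73.1 and 70.2 CPM, with overlapping groups (0.01 ± 0.058, adjusted p = 0.961). Slc7a11, the cystine carrier that is a target of both ATF4 and NRF2, stood at 5.79, 7.45 and 7.21 CPM against 9.60, 10.2 and 11.5 CPM, with no overlap and -0.60 ± 0.20, but did not pass (adjusted p = 0.0567). It stayed uncalled in 9 of 11 alternatives and was called in the others (adjusted p from 1.92e-05 to 0.199 over all of them). Against Dgal it was called higher in NSFr_Dgal (0.81, adjusted p = 0.0197). Of the 24 genes, 5 were called lower and 2 higher in NSFr_Dgal against Dgal, where 2.82% and 3.5% of all genes were. In Rb2_Dgal against Dgal, where edgeR called 2.26% of all genes, edgeR and DESeq2 called 0 of the 24, each with 4 at an unadjusted p under 0.05.

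The element that ATF4 shares with C/EBP was searched as TGATGNAA on both strands, from 250 bases before to 50 after the gene start. It was found for 10 of 22 list members with a promoter sequence (45.5%), against 4.51% of all symbols, and for 5 of the 9 called members that had one. Printed are 3 called members, Atf3, Chac1 and Nupr1, and Asns, which was not called, each on its gene's strand with the element in capitals; in the first 3 the match reads on the opposite strand. The printed stretch of Atf3 lies at chr1:191183406-191183473 (minus), that of Chac1 at chr2:119351019-119351086 (plus), that of Nupr1 at chr7:126625543-126625610 (minus) and that of Asns at chr6:7693210-7693262 (minus).
Atf3: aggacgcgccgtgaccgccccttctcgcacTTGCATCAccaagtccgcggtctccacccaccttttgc
Chac1: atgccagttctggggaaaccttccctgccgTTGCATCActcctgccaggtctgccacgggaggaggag
Nupr1: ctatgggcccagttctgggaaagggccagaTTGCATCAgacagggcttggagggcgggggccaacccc
Asns: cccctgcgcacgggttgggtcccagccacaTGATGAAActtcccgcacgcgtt

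**Figure D3:**
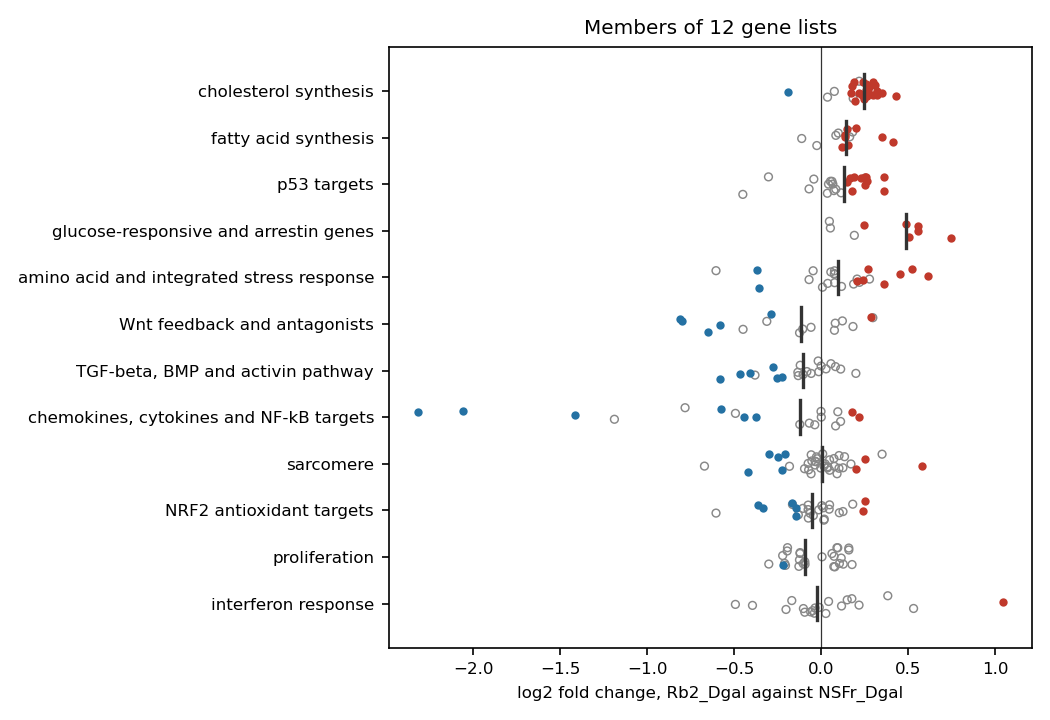
Log2 fold change of Rb2_Dgal against NSFr_Dgal for the tested members of 12 gene lists, 1 point per gene, spread vertically for visibility; red points were called higher, blue called lower and open points not called, and the black bar is the list's median. Sterol, p53 and glucose-responsive genes lie mostly to the right of 0, and the genes called in the Wnt and TGF-beta lists lie to the left with the 1 exception of Dkk3.

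Wnt signals pass through Frizzled receptors to beta-catenin, and part of the response consists of antagonists and feedback genes that dampen it. Of 16 tested genes of that kind 5 were called lower in Rb2_Dgal and 1 higher (median -0.12), beside 5.11% and 4.13% of all genes. Sfrp2, a secreted Frizzled-related protein at chr3:83766321-83774316, stood at 37.6, 41.3 and 35.2 CPM in Rb2_Dgal, 64.1, 70.5 and 65.8 CPM in NSFr_Dgal and 58.9, 59.3 and 60.7 CPM in Dgal (-0.81 ± 0.051 between the preparations, adjusted p = 1.98e-13). Axin2, a feedback inhibitor that is itself a beta-catenin target, stood at 5.79, 7.10 and 7.21 CPM against 10.8, 10.8 and 10.2 CPM (-0.65 ± 0.092). Nkd2, an inhibitor that binds Dishevelled, stood at 20.6, 22.1 and 21.1 CPM against 33.5, 39.1 and 38.3 CPM (-0.80 ± 0.069). In these 3 genes the Rb2_Dgal libraries were the lowest in the comparison without overlap, and each was called lower in Rb2_Dgal than in Dgal (-0.65, -0.59 and -0.60). The antagonist gene Dkk2 (-0.58 ± 0.099) and the transcription factor gene Tcf7 (-0.29 ± 0.053) were lower too, and Dkk3 was higher (0.29 ± 0.050). Outside the list, the ligand gene Wnt10a differed by -0.56 ± 0.052 (adjusted p = 3.29e-09), and of the receptor genes Fzd1, Fzd2 and Fzd4 the values were -0.33 ± 0.030, -0.23 ± 0.037 and 0.44 ± 0.078 (adjusted p = 2.74e-09, 6.06e-05 and 0.000180). The TCF-LEF element through which beta-catenin acts was searched as CTTTGAT on both strands, from 250 bases before to 50 after the start. It was found in 1 of 12 list members with a promoter sequence (Sp5, which was not tested) and 0 of the 5 called ones, against 4.29% of all symbols.

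Activins, BMPs and TGF-beta are secreted ligands that signal through SMAD proteins, and in muscle their antagonists follistatin, noggin and gremlin favour growth or differentiation. Of 21 tested genes 6 were called lower in Rb2_Dgal and 0 higher (median -0.10), beside 5.11% and 4.13% of all genes. The 6 were ligands and antagonists. Among antagonists, Fst, the follistatin gene, stood at 123, 122 and 126 CPM against 168, 176 and 168 CPM (-0.47 ± 0.047, adjusted p = 1.42e-08), with Dgal at 164, 160.2 and 152 CPM. Nog, the noggin gene, differed by -0.58 ± 0.15 and Grem1, gremlin, by -0.23 ± 0.051. Among ligands, the activin subunit genes Inhbb and Inhba stood at 108, 107 and 112 CPM against 143, 147 and 144 CPM (-0.41 ± 0.043) and at 133, 134 and 127 CPM against 149, 156 and 164 CPM (-0.25 ± 0.041). Bmp4 differed by -0.28 ± 0.052. Every one of the 6 except Grem1 was called lower in Rb2_Dgal than in Dgal, and Grem1 was called higher in NSFr_Dgal than in Dgal (0.25, adjusted p = 0.00288). Nog lost its call in 2 of 11 alternatives (adjusted p of up to 0.0953).

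Chemokines draw leukocytes to a tissue, and muscle cells release several of them under stress through the factor NF-kB. Of 19 tested genes of this list 6 were called lower in Rb2_Dgal and 2 higher (median -0.12), and all 6 calls lower held in every alternative run. Cxcl5, a neutrophil chemokine gene at chr5:90759360-90761624, stood at 0.265, 0.270 and 0.446 CPM in Rb2_Dgal and 1.17, 1.64 and 1.35 CPM in NSFr_Dgal, that is 6, 7 and 12 against 30, 48 and 35 counts (-2.06 ± 0.27, adjusted p = 1.95e-06). Dgal gave 9, 6 and 11 counts and control 9, 8 and 8, counts that overlap those of Rb2_Dgal. Cxcl1, of the same receptor family of ligands, gave 3, 4 and 6 counts in Rb2_Dgal and 20, 26 and 25 in NSFr_Dgal (-2.32 ± 0.37, adjusted p = 5.69e-05), with 4, 2 and 7 in Dgal. The sums were 13 counts (exact Poisson 95% interval 6.92 to 22.2, counting error only) and 71 counts (55.5 to 89.6). Ccl2, the monocyte chemokine gene, gave 27, 21 and 27 counts against 75, 71 and 69 (-1.41 ± 0.18, adjusted p = 1.85e-06), with 19, 26 and 33 in Dgal. Ccl7 stood at 4.51, 4.13 and 4.20 CPM against 5.23, 7.63 and 6.09 CPM (-0.57 ± 0.11), the cytokine gene Lif at 15.8, 15.2 and 16.1 CPM against 20.8, 20.9 and 22.3 CPM (-0.44 ± 0.080) and Il33, a nuclear alarmin gene, at 35.99, 34.9 and 35.8 CPM against 43.3, 47.9 and 47.04 CPM (-0.37 ± 0.049). Il33 was called lower in Rb2_Dgal than in Dgal (-0.42), whereas edgeR called the other 5 higher in NSFr_Dgal than in Dgal. Of these 5, DESeq2 called Ccl7 and Lif and gave no adjusted p for the others, which have low counts. Higher in Rb2_Dgal were Cxcl12, a stem cell chemokine gene (0.18 ± 0.036), and the adhesion molecule gene Vcam1 (0.22 ± 0.044). Blood and endothelial markers were at the low sums given above, and of 12 such genes 5 passed the filter and edgeR and DESeq2 called 0, with 0 at an unadjusted p under 0.05.

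The kappa B element was searched as GGG, 3 bases of any kind and TTCC on both strands, from 250 bases before to 50 after the start. It was present in 10 of 19 list members with a promoter sequence (52.6%), against 6.31% of all symbols. Of the 4 called members with a sequence it was found in Cxcl1 alone, whose stretch at chr5:90891126-90891214 on the plus strand is printed with its matches in capitals; the middle of the sequence holds a match on each strand that overlap.
Cxcl1: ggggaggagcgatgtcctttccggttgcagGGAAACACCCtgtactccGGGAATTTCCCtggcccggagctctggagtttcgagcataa

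**Figure D4:**
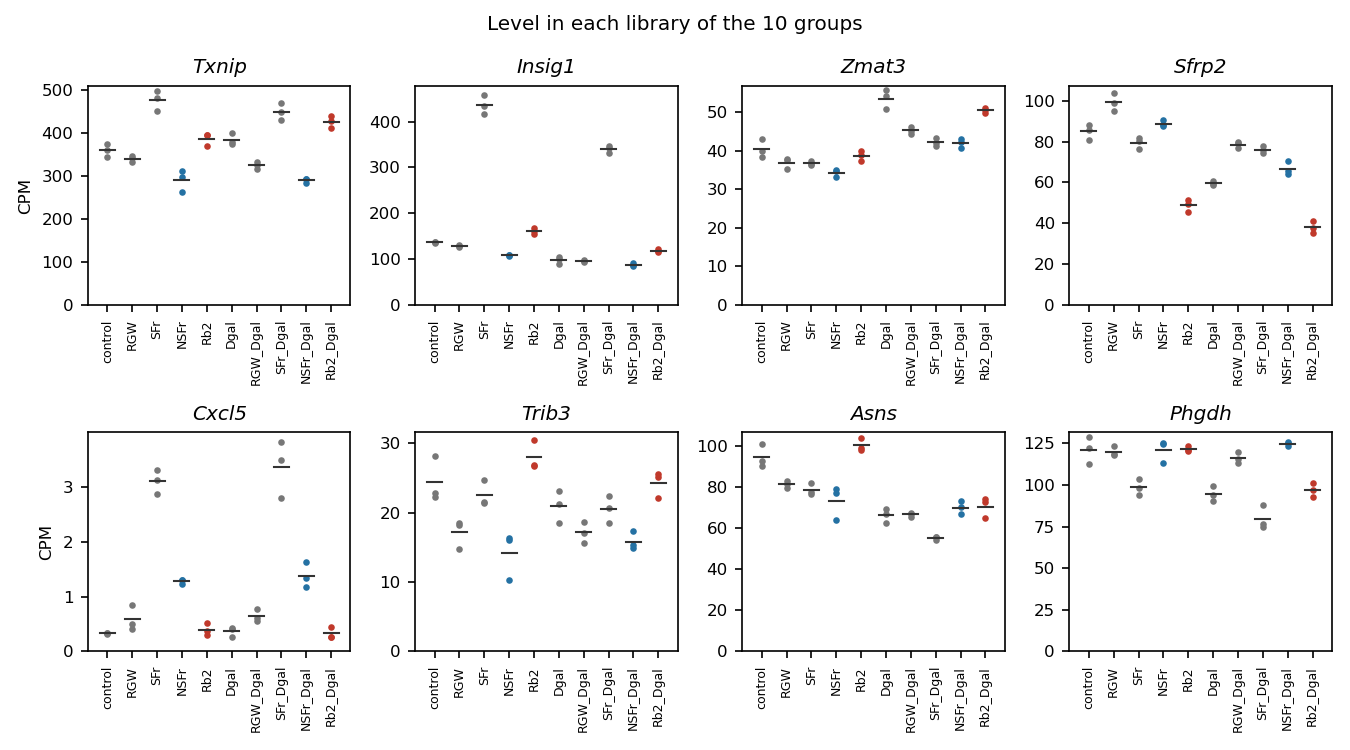
Level in CPM of 8 genes in every library of the 10 groups, with the group mean as a bar; red marks the Rb2 groups, blue the NSFr groups and grey the others (RGW is the water extract and SFr the saponin fraction). With D-galactose the red points lie above the blue ones for Txnip, Insig1, Zmat3 and Trib3, below them for Sfrp2, Cxcl5 and Phgdh, and overlap them for Asns.

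Muscle genes did not move one way. Myosin heavy chains mark stages of fibre maturation, and the embryonic gene Myh3 was lower in Rb2_Dgal, at 2457, 2501 and 2634 CPM against 3263, 3429 and 3482 CPM (-0.42 ± 0.044, adjusted p = 2.27e-08). The perinatal gene Myh8 was higher, at 547, 607 and 572 CPM against 383, 377 and 396 CPM (0.58 ± 0.063, adjusted p = 5.25e-07), and the adult fast gene Myh4 was higher (0.25 ± 0.057) while Myh2 was lower (-0.25 ± 0.075). Myh3 and Myh8 were called in NSFr_Dgal against Dgal in opposite directions (0.32 and -0.26), and Myh8 was called higher in Rb2_Dgal against Dgal (0.32). Over the 38 sarcomere genes, all tested, 3 were called higher and 5 lower, beside 4.13% and 5.11% of all genes, with a median of 0.003. The other calls were Myl1 (0.20), higher, and the genes Tnnt2 (-0.23), Myl4 (-0.21) and Myoz2 (-0.30), lower. Myh2 and Myl4 lost the call in some alternatives (adjusted p of up to 0.178 and 0.0780). Genes listed as markers of undifferentiated myoblasts summed to 4509 to 4647 CPM in Rb2_Dgal and 4341 to 4428 CPM in NSFr_Dgal, without overlap. The sum came mostly from the integrin gene Itga7, with a mean of 2520 CPM over the 6 libraries, and Ncam1, with 770 CPM. Pax7 and Myf5 had means of 39.9 and 22.5 CPM, so the sum does not give the number of undifferentiated cells. Of 13 tested markers 3 were called higher and 2 lower, beside 4.13% and 5.11% of all genes, with a median log2 fold change of 0.0. Higher were Vcam1 (0.22), Cav1 (0.11) and Itga7 (0.09), and lower were Myf5 (-0.26) and Cdh15 (-0.11). All except Vcam1 lost the call in 2 or more alternatives, with adjusted p values of up to 0.153 for Cav1, 0.274 for Itga7, 0.132 for Myf5 and 0.233 for Cdh15. The part of undifferentiated cells in the muscle gene differences was not tested. Among 17 tested myogenic regulators, 2 were called higher and 3 lower, beside 4.13% and 5.11% of all genes. Of these, Myog, the differentiation factor myogenin, stood at 0.17 ± 0.047 and Id2, an inhibitor of such factors, at -0.37 ± 0.066. Myog lost its call in 5 of 11 alternatives (adjusted p of up to 0.0769). Of 19 atrophy genes 1 was called higher and 1 lower, beside 4.13% and 5.11% of all genes. Called higher was Trim63, the MuRF1 ubiquitin ligase (0.19 ± 0.061, adjusted p of up to 0.229 over the alternatives). Called lower was the F-box gene Fbxo40 (-0.47 ± 0.066), and Fbxo32 gave -0.04 ± 0.049 (adjusted p = 0.726).

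Among growth factor genes, Igfbp4, a carrier protein that holds back insulin-like growth factors, stood at 53.2, 61.6 and 58.6 CPM in Rb2_Dgal, 73.9, 88.7 and 85.6 CPM in NSFr_Dgal and 53.7, 57.4 and 56.96 CPM in Dgal (-0.52 ± 0.064, adjusted p = 1.97e-06). Its NSFr_Dgal libraries stood above the other 2 groups, which overlapped in range. The insulin receptor gene Insr gave 0.24 ± 0.075, with a call lost in 8 of 11 alternatives (adjusted p of up to 0.184). Of 28 tested matrix genes 5 were called higher, among them the collagen III gene Col3a1 (0.27 ± 0.036, adjusted p = 3.29e-06) and Fbln7 (0.30 ± 0.072), and 2 lower, Col23a1 and Postn (-0.13 ± 0.040). Of 9 tested imprinted growth genes 3 were called higher, which were Peg10 (0.38 ± 0.072), Zim1 (0.35 ± 0.076) and the cell cycle inhibitor gene Cdkn1c (0.39 ± 0.098). Fbln7, Postn and Cdkn1c lost the call in some alternatives (adjusted p of up to 0.0739, 0.193 and 0.0899).

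Cell division genes were called higher than in Dgal after either preparation. Of 27 such genes 9 were called higher in Rb2_Dgal than in Dgal and 15 in NSFr_Dgal than in Dgal, with 0 lower in either (medians 0.34 and 0.43). Over all genes the shares called higher differed too, at 1.16% in Rb2_Dgal and 3.5% in NSFr_Dgal, so 9 and 15 are not compared with each other. Between the preparations edgeR called 1 of the 27, Rrm2, a ribonucleotide reductase subunit, lower in Rb2_Dgal (-0.22 ± 0.037, adjusted p = 0.000122), and 5 had an unadjusted p under 0.05. Top2a, the topoisomerase of dividing cells, stood at 37.4, 36.2 and 38.5 CPM in Rb2_Dgal, 37.5, 31.6 and 35.4 CPM in NSFr_Dgal and 25.1, 22.6 and 24.8 CPM in Dgal. Its difference between the preparations was 0.10 ± 0.094 (adjusted p = 0.560), with overlapping groups. Ccnb2, the cyclin B2 gene, gave -0.30 ± 0.10 (adjusted p = 0.0543). It stayed uncalled in 8 of 11 alternatives and was called in the others (adjusted p from 0.0202 to 0.265 over all of them).

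NRF2 target genes, which make up the antioxidant response, were called higher in 2 of 26 cases and lower in 5, beside 4.13% and 5.11% of all genes. Ftl1, the ferritin light chain, stood at 311, 270.2 and 294 CPM in Rb2_Dgal and 408, 364 and 353 CPM in NSFr_Dgal (-0.36 ± 0.056, adjusted p = 5.55e-05), and Gstm1, a glutathione transferase with near-identical copies between which counts may have been divided, differed by -0.33 ± 0.064. The transferase gene Gstp1 (-0.17) and the sugar-phosphate and sugar-nucleotide dehydrogenase genes Pgd (-0.14) and Ugdh (-0.14) were lower, and glutathione reductase, Gsr (0.24), and Osgin1 (0.25) were higher. These 5 lost the call in some alternatives, with adjusted p of up to 0.0955 (Osgin1). Srxn1, the sulfiredoxin gene, gave 0.13 ± 0.055 (adjusted p = 0.165). Endoplasmic reticulum chaperone genes were called lower in 3 of 20 tested cases and higher in 0, beside 5.11% and 4.13% of all genes. The 3 were Sdf2l1 (-0.43 ± 0.10), Manf (-0.17) and calreticulin, Calr (-0.11). Manf and Calr lost the call in 4 of 11 alternatives each (adjusted p of up to 0.109 and 0.176).

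Genes with short transcripts had negative medians. For 43 genes whose longest annotated transcript is at most 600 bases the median log2 fold change was -0.19, with 1 called higher and 5 lower, and for 376 genes of 600 to 1000 bases it was -0.06, with 2 called higher (0.532%) and 31 lower (8.24%). Of 76 tested ribosomal protein genes 0 were called higher and 11 lower (median -0.11), for example Rps29 (-0.63 ± 0.15) and Rpl38 (-0.65 ± 0.16), both with copies elsewhere in the genome and both losing the call in 3 of 11 alternatives (adjusted p of up to 0.0810 and 0.0613). Of 13 mitochondrially encoded genes edgeR called 1, mt-Nd3, lower (-0.47 ± 0.12, adjusted p = 0.0193, up to 0.0918 over the alternatives), and the median was -0.24. The part of transcript length and RNA quality in these differences was not tested. Other lists are set beside the 9.24% called over all genes. Glycolysis had 4 of 24 tested genes called, 1 higher and 3 lower, with 11 at an unadjusted p under 0.05 by edgeR. Called were 1 of 20 interferon, 2 of 18 heat shock, 2 of 17 hypoxia and 2 of 18 clock genes. For oxidative phosphorylation and fatty acid oxidation it was 2 of 23 each, for autophagy 2 of 25 and for neuromuscular genes 2 of 22. Osmotic stress and aryl hydrocarbon receptor genes had 0. The 0 counts, by edgeR and DESeq2, were those of 9 tested osmotic stress genes, with 0 at an unadjusted p under 0.05, and of 5 aryl hydrocarbon receptor targets, with 1. In the interferon list the 1 call was Ifit1 at 1.28, 1.04 and 2.16 CPM against 0.664, 0.613 and 0.925 CPM (1.04 ± 0.29, adjusted p of up to 0.246 over the alternatives).

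The same pair of preparations was also given without D-galactose, in 6 libraries that the comparison above does not use and for 12 h. There 2505 genes were called (20.6%), 1164 higher after Rb2 than after NSFr (9.55%) and 1341 lower (11.0%). Of the 1126 genes called with D-galactose 795 were called without it too, which is 70.6% of the first list and 31.7% of the second, and 794 of these differed in the same direction. The exception was Pdk4, a kinase that shuts pyruvate dehydrogenase, with 0.18 ± 0.057 with D-galactose and -0.16 ± 0.059 without it (the first call was lost in 4 of 11 alternatives, with an adjusted p of up to 0.213). Across the 12184 genes, which are not independent of one another, the log2 fold changes of the 2 comparisons had a Pearson correlation of 0.475, and 97.5% of the genes called with D-galactose had the same sign without it. Padi3 gave -1.31 ± 0.13 without D-galactose, Sfrp2 -0.86 ± 0.049, Cxcl5 -1.69 ± 0.26, Insig1 0.57 ± 0.042 and Txnip 0.41 ± 0.047. Cholesterol synthesis genes were called higher in 19 of 25 cases and lower in 0 without D-galactose, p53 targets in 11 of 24 and 0, and Wnt feedback genes in 2 and 6 of 16.

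Whether the difference between Rb2 and NSFr itself differed with D-galactose was tested as an interaction. edgeR called 0 genes (0.0%), with 829 at an unadjusted p under 0.05, and the lowest adjusted p was 0.0541, shared by Asns, Psat1 and Phgdh, which all make amino acids. Asns stood at 98.2, 104 and 98.96 CPM after Rb2 and 64.1, 78.9 and 76.9 CPM after NSFr without D-galactose, without overlap (0.45 ± 0.057), and the difference of the 2 differences was -0.45 ± 0.081. Psat1, the second enzyme of serine synthesis, gave 0.29 ± 0.045 without D-galactose and -0.05 ± 0.046 with it (interaction -0.33 ± 0.064). Phgdh stood at 121, 123 and 120.1 CPM against 113, 125 and 125 CPM without D-galactose (0.004 ± 0.051), where with it the Rb2_Dgal libraries were lower as given above (interaction -0.37 ± 0.072). Over the 24 genes of the integrated stress response 18 were called higher and 2 lower without D-galactose (median 0.34), against 7 and 2 with it. Over all tested genes the share called was 20.6% without D-galactose and 9.24% with it. Lists differed in this: without and with D-galactose, 19 and 21 cholesterol synthesis genes were called and 11 and 11 p53 targets. For autophagy it was 11 and 2, and for hypoxia 8 and 2. The gene-wise interaction test called 0 of the 24 by edgeR and 3 by DESeq2, with 9 and 10 at an unadjusted p under 0.05. Such a p was found for 6.8% of all genes by edgeR. The median interaction of the 24 was -0.15, with 5 positive, and no test was run on the list as a set. The calls of the 3 amino acid genes depended on the processing: DESeq2 called 6 genes and a fit with only the groups compared 14, both including Psat1 and Phgdh, and DESeq2 also Asns. Asns was also called with the replicate number as a block (adjusted p = 0.0218 by edgeR) and without the filter on low counts (0.0211). With 1 library left out, it was called without Rb2_Dgal 1, NSFr_Dgal 1, NSFr 2, NSFr 3, Dgal 1 or Dgal 2 (adjusted p = 0.022, 0.0407, 0.00746, 0.0403, 0.032 and 0.0497 by edgeR). The sources used here state a further 24 h only for the cultures with D-galactose, so that in this interaction D-galactose and the added time in culture cannot be told apart.

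**Figure D5:**
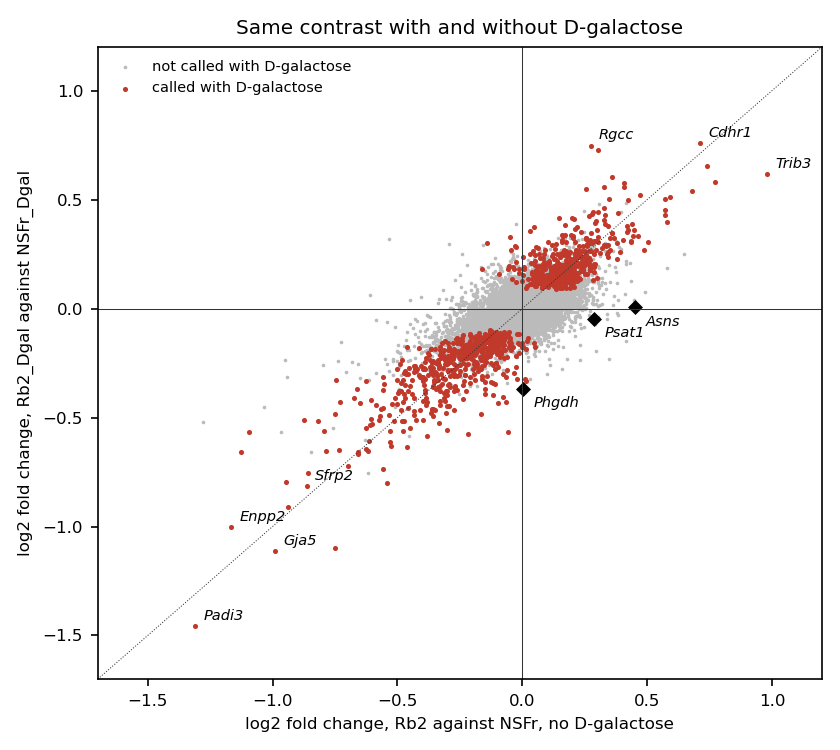
Log2 fold change of Rb2 against NSFr with D-galactose (vertical) and without it (horizontal) for the genes with a mean of at least 5 CPM, 9774 of which lie within the axes and 1 outside; red points were called with D-galactose and the dotted line marks equal values. Most red points lie at the lower left and upper right, and the black diamonds mark Asns, Psat1 and Phgdh, which lie below the line.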

How the data were processed

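The series measured RNA in 30 C2C12 cultures, of which 6 form the comparison. Poly(A) RNA was made into MGIEasy directional libraries and sequenced as paired ends, per the labels' protocols. Per the submitters' processing notes, the authors' tools included RSEM 1.3.3, STAR 2.7.9a, Trim Galore 0.6.10 and FastQC 0.11.9. The deposited table holds the authors' expected counts per gene, which RSEM divides among genes that share reads, so genes with close copies are uncertain; neither annotation nor strand setting is given in the sources used here. Expected counts, 19.4% of them not whole, were rounded.

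edgeR 4.0.16 (quasi-likelihood, robust, TMM, filterByExpr) was fitted once over all 30 libraries with 1 coefficient per group, and p-values of the 12184 genes were adjusted by Benjamini-Hochberg, with calls under 0.05. Standard errors were worked back from F, as the size of the log2 fold change over its square root. Replicates are those of the design text, and p-values measure the spread between these cultures. On data simulated for Rb2_Dgal against NSFr_Dgal with 12142 genes, the test made 7 false calls and recovered 68% of 1.2-fold, 80% of 1.3-fold, 84% of 1.5-fold and 96% of 2-fold changes. At each fold 50 genes were changed, and counts were drawn independently from the means and spread of the fit itself. The simulation therefore cannot give the rate of false calls in these cultures.

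The members, 37 gene lists and the naming rule were chosen with earlier results of these data known, and list counts carry no test. The rule named the 12 largest rises and 12 largest falls with a mean of at least 5 CPM and groups that do not overlap, leaving out predicted genes, up to 4 called members per list and the 6 genes of smallest p in the comparison without D-galactose and in the interaction; further list members, and Wnt10a, Fzd1, Fzd2, Fzd4, Igfbp4 and ribosomal genes, were named after their values were seen. The text summarises some of these. Coordinates are from GENCODE vM21 (GRCm38), which matched 16022 of 16025 symbols, and promoter sequences from RefSeq (GRCm38.p6). Alternatives were DESeq2 1.42.0, RLE scaling, dropping the filter, a replicate block, fitting the compared groups by themselves and leaving out single libraries.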

Additional observations from a re-analysis of the deposited data

How the results depend on the processing

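Apart from the interaction, counts of called genes moved by more than 1.5 times only in fits with fewer libraries. For Rb2_Dgal against NSFr_Dgal (1126) the count was 1947 with only the groups compared and 661 (without Rb2_Dgal 1) to 773 with 1 library left out, a move of over 1.5 times for every library except Rb2_Dgal 3, and 997 to 1109 with DESeq2, RLE scaling, the replicate block or no filter. For Rb2 against NSFr without D-galactose (2505) leaving out 1 library gave 1582 (without Rb2 3, the 1 library with such a move) to 2098. For Rb2_Dgal against Dgal (275) it gave 126 (without Dgal 2) to 227, with such a move except for Dgal 1 and Dgal 3, and for NSFr_Dgal against Dgal (771) 353 (without Dgal 3) to 624, with such a move except for Dgal 1. The interaction (0) gave 3 without the filter, 6 with DESeq2, 1 with the replicate block, 14 with only the groups compared and 0 to 3 with 1 library left out; the cause was not tested. With the replicate number as a block the count for Rb2_Dgal against NSFr_Dgal was 1100. Deviations of same-numbered libraries of the 2 groups correlated at 0.0322, 0.0303 and -0.0137 (other pairs -0.0878 to 0.0597). Those of NSFr_Dgal and Dgal correlated at 0.115, 0.0231 and 0.0441 (other pairs -0.0936 to 0.051). Those of Rb2_Dgal and Dgal gave 0.0719, 0.0547 and -0.00236 (other pairs -0.0649 to 0.0102). Those of Rb2 and NSFr gave -0.0467, -0.00884 and 0.0573 (other pairs -0.0708 to 0.0841). Whether same-numbered libraries shared a day or passage cannot be told from these values. None of the genes named in the report changed sign while called: of 133 called genes in the text 98 kept the call in all 11 alternatives and 35 lost it in at least 1, each of them noted where it is described. Among lists, the called higher members ranged over the alternatives from 16 to 21 for cholesterol synthesis (20), 5 to 10 for fatty acid synthesis (8), 8 to 11 for p53 targets (11), 5 to 6 for glucose-responsive genes (6), 5 to 10 for the integrated stress response (7) and 2 to 11 for collagens and matrix (5). Called lower members ranged from 5 to 10 for the TGF-beta list (6), 3 to 8 for NRF2 targets (5) and 3 to 7 for sarcomere genes (5), and stayed at 5 for Wnt feedback genes and 6 for chemokines.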

Other observations

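Other genes with a call between Rb2_Dgal and NSFr_Dgal, picked after their values were seen, include secreted factors and lipid and hormone enzymes. Hgf, the hepatocyte growth factor gene that activates muscle satellite cells, stood at 37.6, 38.9 and 35.8 CPM in Rb2_Dgal and 29.01, 30.1 and 30.05 CPM in NSFr_Dgal (log2 fold change 0.33 ± 0.055, adjusted p = 9.12e-05). Bdnf, a neurotrophin that muscle also makes, was higher (0.26 ± 0.052), and both genes were called higher in Rb2_Dgal than in Dgal (0.33 and 0.19). Edn1, the gene of the vessel-constricting peptide endothelin 1, was lower at 3.23, 3.20 and 2.71 CPM against 5.66, 4.81 and 4.58 CPM (-0.72 ± 0.13). Hsd11b1, which regenerates active glucocorticoid inside cells, stood at 56.5, 58.2 and 54.7 CPM against 75.8, 82.6 and 82.7 CPM (-0.51 ± 0.052, adjusted p = 2.20e-08) and was called on opposite sides of Dgal (-0.27 in Rb2_Dgal and 0.24 in NSFr_Dgal). Porcn, the acyltransferase that Wnt ligands need for secretion, was lower (-0.38 ± 0.051). Enpp1, which makes pyrophosphate outside the cell, was higher at 231, 242 and 225 CPM against 165, 180.3 and 180.5 CPM (0.41 ± 0.045), and the metallothionein gene Mt2 was lower (-0.44 ± 0.078).

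Epithelial genes appeared among the falls besides Padi3, Asprv1 and Grhl3: the keratin genes Krt14, at 1.77, 1.23 and 1.45 CPM against 2.77, 3.20 and 2.93 CPM (-1.01 ± 0.16, adjusted p = 4.84e-05), and Krt19, at 13.04, 12.7 and 12.9 CPM against 18.8, 18.1 and 19.6 CPM (-0.55 ± 0.092). The groups did not overlap in either, and both were called lower in Rb2_Dgal than in Dgal (-0.78 and -0.44). No list of epithelial markers was tested.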
